A study of Mus musculus with 4 samples.

Results

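The PYHIN family comprises mouse genes whose proteins typically pair an N-terminal pyrin domain, which binds other pyrin domains, with a C-terminal HIN domain, which binds DNA. Aim2, its best known member, binds double-stranded DNA in the cytosol and recruits the adaptor ASC, encoded by Pycard, to activate caspase-1. Many relatives are induced by interferons in myeloid cells and act in the nucleus or in DNA sensing that runs through STING. The family here consists of 9 genes, Ifi203, Ifi204, Ifi205, Pyhin1, Mnda, Mndal, Aim2, Pydc3 and Pydc4, taken as the entries of both deposited tables that carry these symbols. All 9 were found in both tables, among 15310 genes in stimulated and 15394 in unstimulated cells. They were chosen on measured values, because several of them went opposite ways in the 2 states. Their GOLPH2-/- over wild-type ratios are therefore a description, and no test over the family is given.

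The cells were BMDCs, dendritic cells grown from bone marrow, of C57BL/6 mice aged 8 weeks. There were 4 groups of 1 library each. The first was GOLPH2-/- (KO) cells that received 16 h of IFN-gamma and thereafter 4 h of LPS, and the second was wild-type (WT) cells with the same stimulation. The third was KO cells labelled as control and the fourth WT cells labelled as control, both called unstimulated here. GOLPH2 is the protein of Golm1, a Golgi membrane gene. IFN-gamma acts through its receptor and the JAK-STAT pathway, and LPS is a bacterial ligand of Toll-like receptor signalling. The labels do not give how the allele was made, the number of animals behind a library or the culture conditions. With 1 library per group there is no replicate check, so every error below is a counting error that holds no spread between cultures, and every call compares 2 libraries, not the conditions.

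The authors deposited a log2 ratio of KO over WT and a p-value per gene. Read numbers per library were recovered from these values, and came out whole within 0.05 reads for 99.2% of genes in stimulated and 99.5% in unstimulated cells, leaving out genes at the highest stored p. The recovered libraries held 36700000 reads in stimulated KO, 37700000 reads in stimulated WT, 39500000 reads in unstimulated KO and 34600000 reads in unstimulated WT cells, rounded to 3 digits. Levels are given as CPM, reads per 1000000 reads of the recovered library total. All 9 family members had over 300 reads in every library. Golm1, the gene of GOLPH2, lay at a log2 ratio of −2.00 ± 0.10 (counting SE) in stimulated and −2.09 in unstimulated cells, where its p was at the highest stored value. Golm1 reads were thus lower in both KO libraries, though not at 0.

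A gene was called higher or lower where the authors' deposited p, after Benjamini-Hochberg adjustment over all genes of its table, was under 0.001. Of 16 dendritic cell markers found, 8 were called higher and 1 lower in stimulated KO cells, and 9 higher and 0 lower in unstimulated KO cells. Itgax, the CD11c gene, had 16609 reads in stimulated KO, 13976 in stimulated WT, 21566 in unstimulated KO and 15098 in unstimulated WT cells. The unstimulated numbers of Itgax are lower limits, since its p was at the highest stored value there. The markers of the labelled cell type were thus present in every library. Of 10 fibroblast and stromal markers, 7 were called higher and 1 lower in stimulated KO cells, with a median log2 ratio of 1.71. In unstimulated KO cells 5 of the 10 were called higher and 0 lower, with a median of 0.74. Their summed level was 155.9 CPM in stimulated KO, 86.1 in stimulated WT, 113.3 in unstimulated KO and 79.0 in unstimulated WT cells. Markers of macrophages and monocytes had 5 higher and 1 lower of 11 in stimulated KO cells, and 7 higher and 1 lower in unstimulated ones. Lymphocyte markers had 2 higher and 0 lower of 10 in stimulated KO cells, and 1 higher and 1 lower in unstimulated ones. Only 3 of the 10 had a geometric mean of at least 50 reads in either state. Ccl5 was 1 of the calls in each state, at small log2 ratios of 0.02 in stimulated and −0.05 in unstimulated cells. Neutrophil markers had 0 higher and 1 lower of 6 found in stimulated KO cells, and 0 higher and 2 lower of 8 found in unstimulated ones. In each state 3 of those found reached 50 reads. Plasmacytoid markers had 0 higher and 1 lower of 5 in stimulated KO cells and 2 higher and 0 lower in unstimulated ones, and the list shares Irf7 with the cGAS and STING list and Bst2 with the antiviral effectors. Over all genes, 5.36% were called higher and 6.54% lower in stimulated KO cells. In unstimulated KO cells 4.7% of all genes were called higher and 4.27% lower. The part of these markers in the family's ratios was not tested. In bulk RNA, fewer cells of a type and less RNA per cell cannot be told apart.

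All 9 genes lie in 1 cluster on mouse chromosome 1. In RefSeq on GRCm38.p6 the stretch from Aim2 to Ifi205 is chr1:173349547-174031755, or 682.2 kb, and holds 19 annotated genes, of which 13 are protein-coding and 5 are pseudogenes. RefSeq now calls Pydc4, Pyhin1, Pydc3 and Mnda by the symbols Ifi213, Ifi209, Ifi208 and Ifi211. Besides the 9 members, 2 further genes of the cluster were in the tables. These are AI607873, which RefSeq calls Ifi207, and Ifi202b, whose protein p202 lacks a pyrin domain and inhibits Aim2 in mice. The cluster arose by duplication, so its transcripts resemble each other. Of the 50-base words of Mnda transcripts, 72.8% also occurred in another PYHIN transcript, of a member or not. Most of them were in Ifi205, which held 44.7%. The shared part was 33.4% for Pyhin1, 20.8% for Pydc3, 19.2% for Ifi204, 18.6% for Ifi205, 17.7% for Mndal, 15.6% for Pydc4 and 12.2% for Ifi203. Aim2 shared 0%. The annotated Mndal gene of GENCODE, chr1:173849126-173942491, also spans Mnda and most of Ifi203 on the same strand. How the authors' counting treated such reads is, in the sources used here, not given, so the split of reads among members other than Aim2 is uncertain.

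Promoter sequences of RefSeq on GRCm38.p6, from 250 bases before to 50 after each start, were found for 8 of the 9 genes, 10 promoters in all. Each was searched on both strands for 3 motifs, which overlapped nowhere in these windows. The core of the interferon-stimulated response element (ISRE), GAAANNGAA, was in 7 of the 10 promoters and 6 of the 8 genes, against 8.56% of all 32851 promoters. The GAS element TTCNNNGAA was in 0 of the 10 and in 8.30% of all promoters. The PU.1 core GAGGAAG was in 1, that of Aim2, and in 13.6% of all promoters. Genes with an ISRE core were Pydc4, Pydc3, Mndal, Mnda, Ifi203 and Ifi205. A match is a run of letters and no shown binding site. The 40 bases around the ISRE core of Pydc4 are printed here beside the best ungapped match in the other genes, as 7 of the 10 promoters, to show the stretch that holds the core. Each line runs 5′ to 3′ on the gene's strand, and capitals mark an ISRE core.
Pydc4: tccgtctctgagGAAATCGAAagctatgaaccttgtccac
Pydc3: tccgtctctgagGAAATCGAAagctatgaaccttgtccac
Mndal: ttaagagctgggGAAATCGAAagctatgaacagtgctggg
Ifi203: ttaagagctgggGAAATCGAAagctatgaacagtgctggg
Mnda: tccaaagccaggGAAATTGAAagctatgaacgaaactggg
Ifi205: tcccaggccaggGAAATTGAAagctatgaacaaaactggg
Pyhin1: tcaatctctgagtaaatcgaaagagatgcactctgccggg

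Pydc3 matched Pydc4 in all 40 bases, Pyhin1 in 28, Mndal and Ifi203 in 26 each, and Mnda and Ifi205 in 23 each. The 3 promoters not printed matched less well, with 19 bases in the second Mndal, 18 in the Aim2 and 17 in the second Ifi203 promoter. Counted from the start site, the core began at −73 in Pydc4 and −58 in Pydc3. It began at −36 in Mndal, −37 in Mnda and −35 in Ifi203, but at −134 in Ifi205. Whole promoters of 4 members follow, chosen for their different values below. Capitals mark an ISRE core, on either strand, or in Aim2 the PU.1 core. The Pydc4 promoter is chr1:173599223-173599522, minus strand, and the Ifi205 promoter is chr1:174031706-174032005, minus strand. The Pyhin1 promoter is chr1:173630609-173630908, plus strand, and the Aim2 promoter is chr1:173420354-173420653, plus strand.
Pydc4: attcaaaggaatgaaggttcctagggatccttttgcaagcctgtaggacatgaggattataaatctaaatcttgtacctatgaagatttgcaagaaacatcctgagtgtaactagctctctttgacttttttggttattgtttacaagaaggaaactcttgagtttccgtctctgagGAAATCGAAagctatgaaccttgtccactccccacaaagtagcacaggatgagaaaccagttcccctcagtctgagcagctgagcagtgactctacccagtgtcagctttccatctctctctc
Ifi205: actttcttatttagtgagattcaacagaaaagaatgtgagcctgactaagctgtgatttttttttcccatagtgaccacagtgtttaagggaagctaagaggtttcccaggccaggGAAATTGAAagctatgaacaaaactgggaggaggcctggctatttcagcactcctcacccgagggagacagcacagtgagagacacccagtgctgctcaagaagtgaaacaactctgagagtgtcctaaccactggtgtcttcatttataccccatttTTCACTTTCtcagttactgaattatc
Pyhin1: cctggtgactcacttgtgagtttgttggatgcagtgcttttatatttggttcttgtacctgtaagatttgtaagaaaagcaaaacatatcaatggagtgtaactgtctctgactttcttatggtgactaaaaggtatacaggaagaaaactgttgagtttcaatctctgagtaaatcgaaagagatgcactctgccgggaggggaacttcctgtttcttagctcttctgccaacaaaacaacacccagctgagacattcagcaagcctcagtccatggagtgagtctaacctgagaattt
Aim2: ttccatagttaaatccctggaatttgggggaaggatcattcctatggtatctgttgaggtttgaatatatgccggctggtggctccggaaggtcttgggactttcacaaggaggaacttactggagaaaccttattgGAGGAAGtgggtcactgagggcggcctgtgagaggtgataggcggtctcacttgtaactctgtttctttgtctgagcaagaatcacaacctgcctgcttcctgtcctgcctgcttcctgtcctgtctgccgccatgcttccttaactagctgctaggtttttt

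CPM levels are compared between libraries for each gene, never between genes, since they are not divided by transcript length. Stimulation was accompanied by higher levels of 8 of the 9 genes in both genotypes, which is a contrast between states that the choice of the family did not use. Those 8 were at least 1.5-fold higher in both genotypes, as were 5.27% of all 14823 genes in both tables. Summed over the family, the level was 1322 CPM in stimulated KO, 1439 in stimulated WT, 657.8 in unstimulated KO and 543.7 in unstimulated WT cells. The median log2 ratio of stimulated over unstimulated was 0.91 in KO and 1.39 in WT cells, against −0.13 in KO and −0.14 in WT cells over the 8604 genes with a geometric mean of at least 300 reads in both tables. Aim2 was the member outside this pattern.

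**Figure D1:**
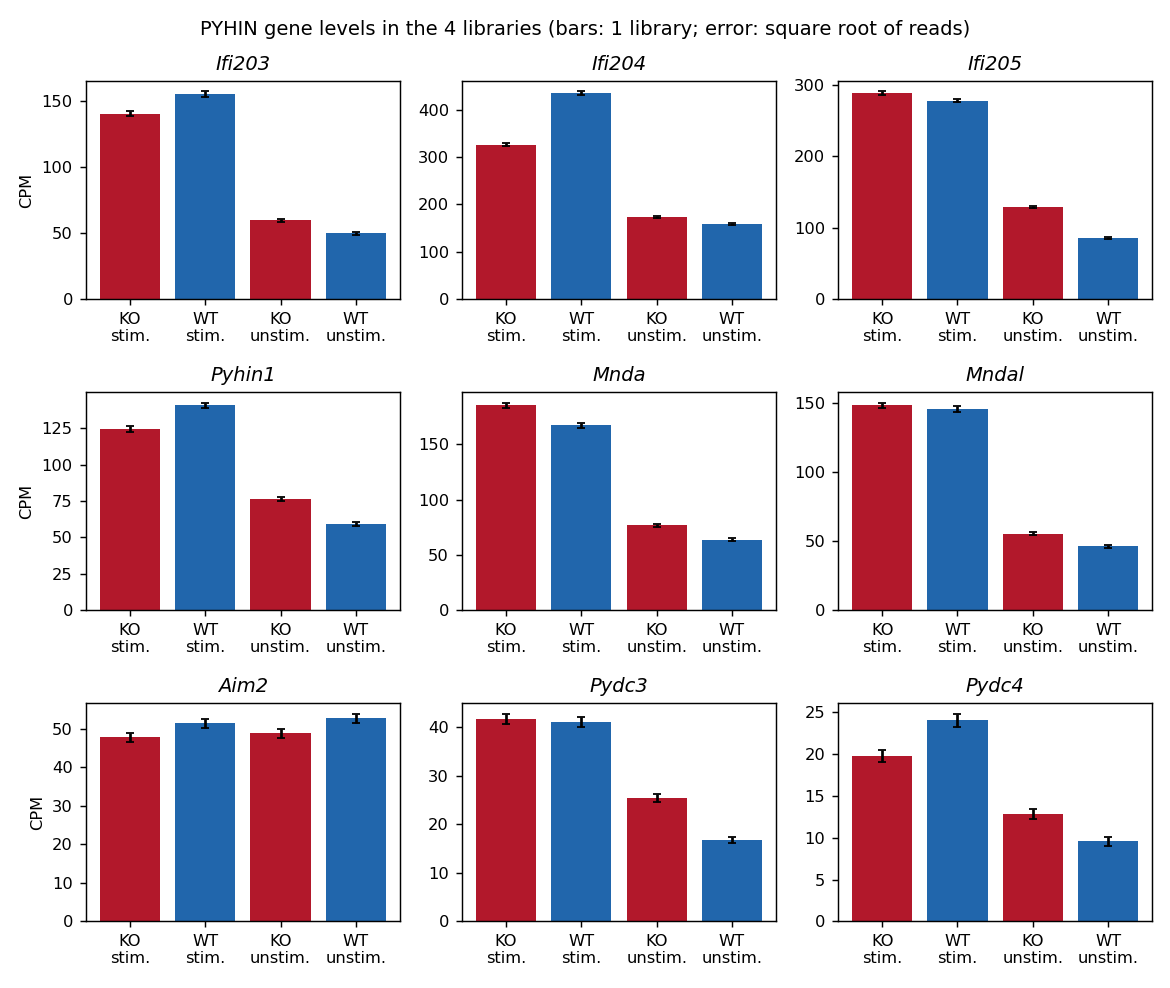
CPM of each PYHIN gene (y axis, own scale per panel, from 0) in the 4 libraries (x axis; KO red, WT blue; stim., IFN-gamma then LPS; unstim., labelled control). Each bar is 1 library and its error is the square root of the reads. Both stimulated bars stand above both unstimulated bars in 8 panels; in Aim2 the 4 bars lie between 47.9 and 52.7 CPM.

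Aim2, the cytosolic DNA sensor of the inflammasome, had 47.9 CPM in stimulated KO, 51.5 in stimulated WT, 48.9 in unstimulated KO and 52.7 in unstimulated WT cells. These rested on 1759, 1938, 1933 and 1826 reads in the same order. Stimulated over unstimulated it was 0.979-fold in KO and 0.976-fold in WT cells, and centred on the median gene instead, the log2 ratio was 0.12 in KO and 0.11 in WT cells. The log2 ratio of KO over WT was −0.10 ± 0.047 (counting SE) in stimulated and −0.11 ± 0.047 in unstimulated cells, and neither was called. Aim2 was the only member with a ratio below 0 in both states, though the uncentred ratio in unstimulated cells was 0.082. A difference of this size was not detectable at this depth.

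Ifi204 encodes p204, a relative of human IFI16 that in mouse cells has been tied to DNA sensing through STING. It had 325.9 CPM in stimulated KO, 435.2 in stimulated WT, 173.7 in unstimulated KO and 159.5 in unstimulated WT cells. These levels came from 11974, 16392, 6867 and 5524 reads. Stimulated KO cells were lower than stimulated WT cells by a log2 ratio of −0.42 ± 0.017, the furthest below 0 of the 9 members. Unstimulated KO cells were higher, by 0.12 ± 0.026. The second difference is small, since 14.5% of the 8923 genes with at least 300 reads lay as high or higher. In the stimulated comparison 1.79% of the 8733 such genes lay as low or lower.

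Ifi205 encodes p205, a nuclear protein reported to act on the expression of ASC in mouse macrophages. Its level was 288.0 CPM in stimulated KO, 278.0 in stimulated WT, 129.0 in unstimulated KO and 85.9 in unstimulated WT cells, from 10580, 10473, 5099 and 2974 reads. The 2 stimulated libraries were close, at a log2 ratio of 0.05 ± 0.020 that was not called. In unstimulated cells KO stood above WT by 0.59 ± 0.033, or 1.502-fold, and 0.314% of the genes with at least 300 reads lay as high. The unstimulated WT library was the lowest of the 4.

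Pydc3 and Pydc4, named for their pyrin domains, share the 40-base window printed above, and 18.1% of the 50-base words of Pydc3 occurred in Pydc4. Pydc3 had 41.6 CPM in stimulated KO, 41.0 in stimulated WT, 25.4 in unstimulated KO and 16.7 in unstimulated WT cells, from 1530, 1546, 1005 and 579 reads. Its stimulated ratio of 0.02 ± 0.052 was not called, and its unstimulated ratio of 0.60 ± 0.074 was called higher. Pydc4 had 19.8 CPM in stimulated KO, 24.1 in stimulated WT, 12.8 in unstimulated KO and 9.59 in unstimulated WT cells, from 726, 906, 508 and 332 reads. This gene was called in both states, lower in stimulated KO cells at −0.28 ± 0.072 and higher in unstimulated KO cells at 0.42 ± 0.10. It was the least deeply covered member and has the widest errors.

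Pyhin1, which shares its symbol with the human gene of IFIX, and Ifi203, a further nuclear member, had the same order of the 4 libraries as Ifi204 and Pydc4. Pyhin1 had 124.5 CPM in stimulated KO, 140.7 in stimulated WT, 76.2 in unstimulated KO and 59.3 in unstimulated WT cells, from 4573, 5300, 3014 and 2053 reads. Ifi203 had 140.5 CPM in stimulated KO, 155.4 in stimulated WT, 59.7 in unstimulated KO and 49.96 in unstimulated WT cells, from 5163, 5854, 2361 and 1730 reads. Stimulated WT was thus highest, then stimulated KO, unstimulated KO and unstimulated WT, and all neighbouring pairs within a state were called. Log2 ratios of Pyhin1 were −0.18 ± 0.029 in stimulated and 0.36 ± 0.041 in unstimulated cells. Those of Ifi203 were −0.15 ± 0.028 and 0.26 ± 0.045. The stimulated differences of both genes are small, as 11.2% of genes with at least 300 reads lay as low as Pyhin1 and 15.2% as low as Ifi203.

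Mnda and Mndal carry the name of the human myeloid nuclear differentiation antigen. Mnda had 185.3 CPM in stimulated KO, 167.1 in stimulated WT, 76.7 in unstimulated KO and 63.7 in unstimulated WT cells, from 6809, 6293, 3031 and 2207 reads. It was the only member called higher in KO cells in both states, at 0.15 ± 0.025 in stimulated and 0.27 ± 0.040 in unstimulated cells. Mndal had 148.4 CPM in stimulated KO, 145.9 in stimulated WT, 55.4 in unstimulated KO and 46.3 in unstimulated WT cells, from 5453, 5494, 2190 and 1602 reads. Its stimulated ratio of 0.03 ± 0.028 was not called, whereas its unstimulated ratio of 0.26 ± 0.047 was called higher. Mnda is the member whose reads are least its own by sequence, as given above.

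Counted over the 9 genes, 1 was called higher and 4 were called lower in stimulated KO cells, and 8 were called higher and 0 lower in unstimulated KO cells. Over all genes of the tables, 5.36% were called higher and 6.54% lower in stimulated KO cells, and 4.7% were called higher and 4.27% lower in unstimulated KO cells. With the further demand of a 1.5-fold difference, 0 members were called in stimulated cells, beside 0.425% of all genes higher and 0.594% lower. In unstimulated cells Ifi205 and Pydc3 met it, both higher, beside 0.409% of all genes higher and 0.299% lower. Since the family was chosen on these ratios, nothing is read from its counts against these shares. The median ratio of the 9 was −0.10 in stimulated and 0.27 in unstimulated cells, beside 0.01 and 0.00 over all genes. The authors' deposited table marked Ifi205, Pydc3 and Pydc4 as differentially expressed in unstimulated cells, at deposited log2 fold changes of 0.78, 0.80 and 0.61, and 0 of the 9 in stimulated cells. Pyhin1 was the next below those marked, at 0.55 in the authors' deposited table.

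**Figure D2:**
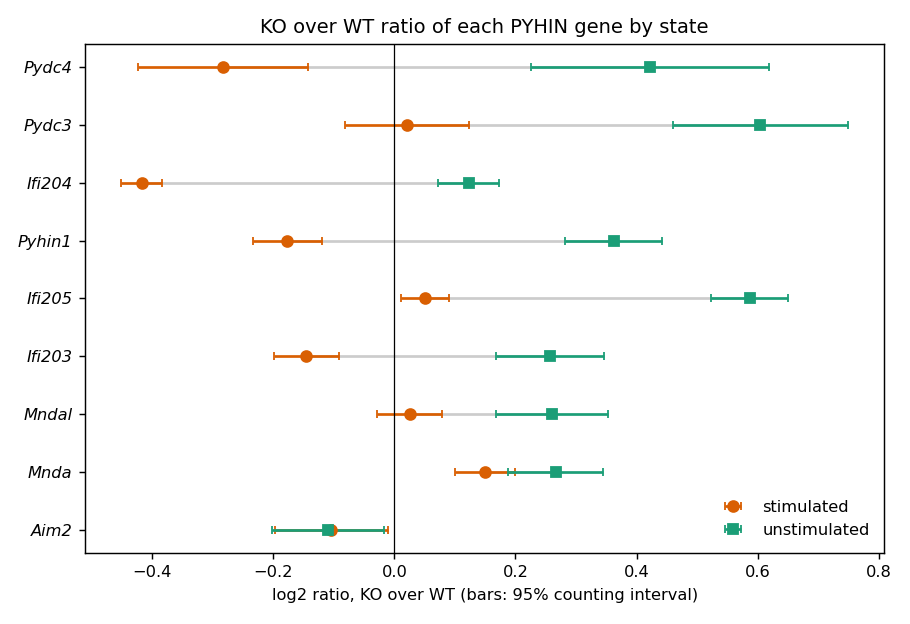
Log2 ratio of KO over WT (x axis) for each PYHIN gene (y axis, ordered by the difference between states) in stimulated (orange circles) and unstimulated cells (green squares). Bars are 95% counting intervals of 2 libraries. Every stimulated point lies left of its unstimulated point except in Aim2, where they coincide at −0.10 and −0.11.

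The ratio of KO over WT was lower in stimulated than in unstimulated cells for 8 of the 9 genes. The difference of the log2 ratios, stimulated minus unstimulated, was −0.71 ± 0.12 for Pydc4, −0.58 ± 0.090 for Pydc3 and −0.54 ± 0.050 for Pyhin1. It was −0.54 ± 0.031 for Ifi204, −0.54 ± 0.038 for Ifi205 and −0.40 ± 0.053 for Ifi203. Mndal, at −0.23 ± 0.055, and Mnda, at −0.12 ± 0.047, moved less, and Aim2 lay at 0.01 ± 0.067. Among the 8604 genes with at least 300 reads in both tables, the 5th and 95th percentiles of this difference were −0.24 and 0.21. Mnda, Mndal and Aim2 fell within that range, and the other 6 below it. The same quantity can be read as a smaller fold of stimulated over unstimulated in KO than in WT cells.

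**Figure D3:**
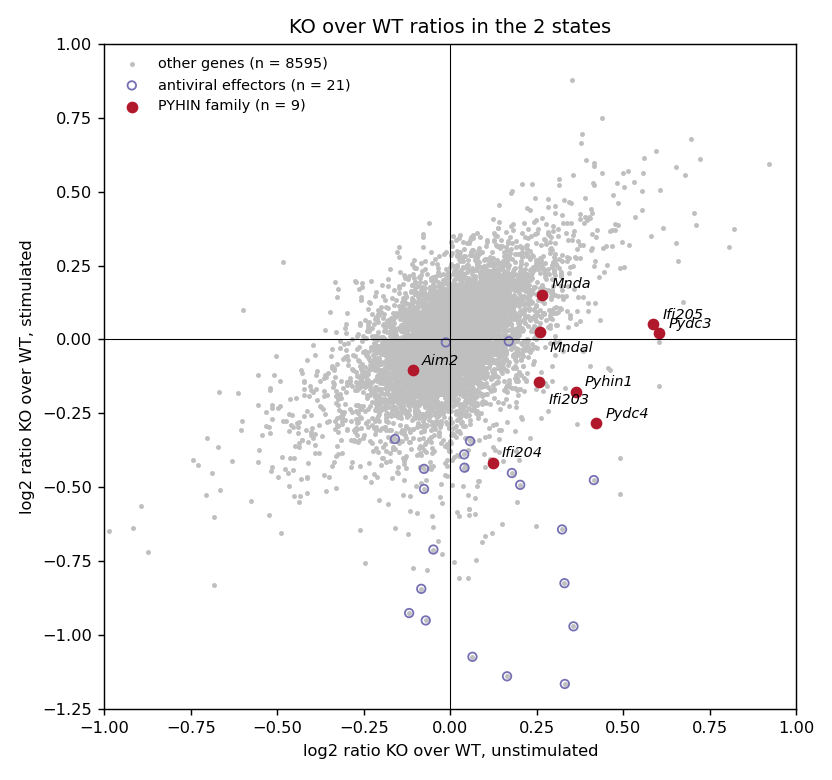
Log2 ratio of KO over WT in unstimulated (x axis) and stimulated cells (y axis) for 8604 genes with a geometric mean of at least 300 reads in both tables, with 5 genes outside the axes. Red points are the 9 PYHIN genes, open circles 21 antiviral effectors, grey points the other genes. Pydc4, Pyhin1, Ifi203 and Ifi204 lie in the lower right of the plane, and Aim2 in the lower left, although its uncentred unstimulated ratio was 0.082.

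Called higher in unstimulated and lower in stimulated KO cells were 4 members, Ifi203, Ifi204, Pyhin1 and Pydc4, or 44.4% of the family. Among the 14823 genes that both tables hold, 28, or 0.189%, were called so, and the 4 members make up 14.3% of these. The choice of the family rests on this pattern. Among the other 24 are Ifit2, Mx1, Isg15, Iigp1, Slfn1, Irf7 and Samhd1. Of these, Irf7 and Samhd1 belong to the cGAS and STING list below and the other 5 to the interferon-induced lists. Ccnd2, Cdkn1a, Lrp1, Macf1, Slc2a1 and Wnk1 are also among the 24 and belong to none of the lists used here. The reverse pattern, lower in unstimulated and higher in stimulated KO cells, was called for 13 genes. Ifit2 and Mx1, antiviral effectors, had log2 ratios of −1.17 and −0.64 in stimulated and 0.33 and 0.32 in unstimulated cells. Slfn1 of the Schlafen family had −0.16 in stimulated and 0.60 in unstimulated cells, and Iigp1 of the immunity-related GTPases −0.52 and 0.49.

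Fold values of stimulated over unstimulated were smaller in KO than in WT cells for the same 8 genes. They were 2.68-fold in KO and 3.15-fold in WT cells for Mndal, and 2.42-fold in KO and 2.62-fold in WT cells for Mnda. Ifi203 had 2.35-fold in KO and 3.11-fold in WT cells, and Ifi205 2.23-fold in KO and 3.24-fold in WT cells. Ifi204 had 1.88-fold in KO and 2.73-fold in WT cells, Pydc3 1.64-fold in KO and 2.45-fold in WT cells, and Pyhin1 1.63-fold in KO and 2.37-fold in WT cells. Pydc4 had the lowest KO value above that of Aim2, 1.54-fold, against 2.51-fold in WT cells. In WT cells 8 members thus lay between 2.37-fold and 3.24-fold, and in KO cells between 1.54-fold and 2.68-fold. Of the genes with at least 300 reads in both tables, 1.59% were at least 2-fold higher after stimulation in both genotypes, and Ifi203, Ifi205, Mnda and Mndal were members that met this. The 6 genes with an ISRE core printed above all belong to the 8, as do Pyhin1 and Ifi204.

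**Figure D4:**
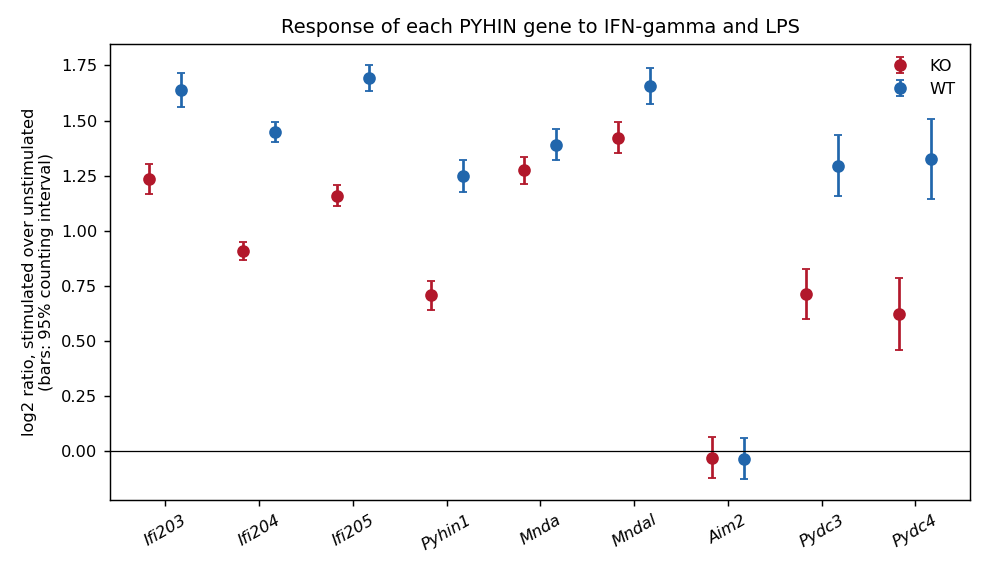
Log2 ratio of stimulated over unstimulated (y axis) for each PYHIN gene (x axis) in KO (red, left) and WT cells (blue, right). Bars are 95% counting intervals of 2 libraries. The KO point lies below the WT point in 8 genes, and for Aim2 both lie near 0.

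Along the cluster, the ratios in stimulated cells did not fall into one block. AI607873, which sits beside Ifi204, had 4755 reads in stimulated KO, 6452 in stimulated WT, 2888 in unstimulated KO and 2334 in unstimulated WT cells. Its log2 ratio was −0.40 ± 0.027 in stimulated cells (called lower) and 0.12 ± 0.040 in unstimulated cells (not called). These values are close to those of its neighbour Ifi204, −0.42 and 0.12. AI607873 was 1.77-fold higher after stimulation in KO and 2.54-fold in WT cells. Ifi202b had 49 reads in stimulated KO, 58 in stimulated WT, 43 in unstimulated KO and 26 in unstimulated WT cells, too few to show a difference. Mndal, Mnda and Ifi203 lie side by side, and in stimulated cells their ratios were 0.03, 0.15 and −0.15. In unstimulated cells the ratios of these neighbours were alike, at 0.26, 0.27 and 0.26. The gene at one end, Aim2, was called in neither state, and Ifi205 at the other end had the second highest unstimulated ratio of the family.

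**Figure D5:**
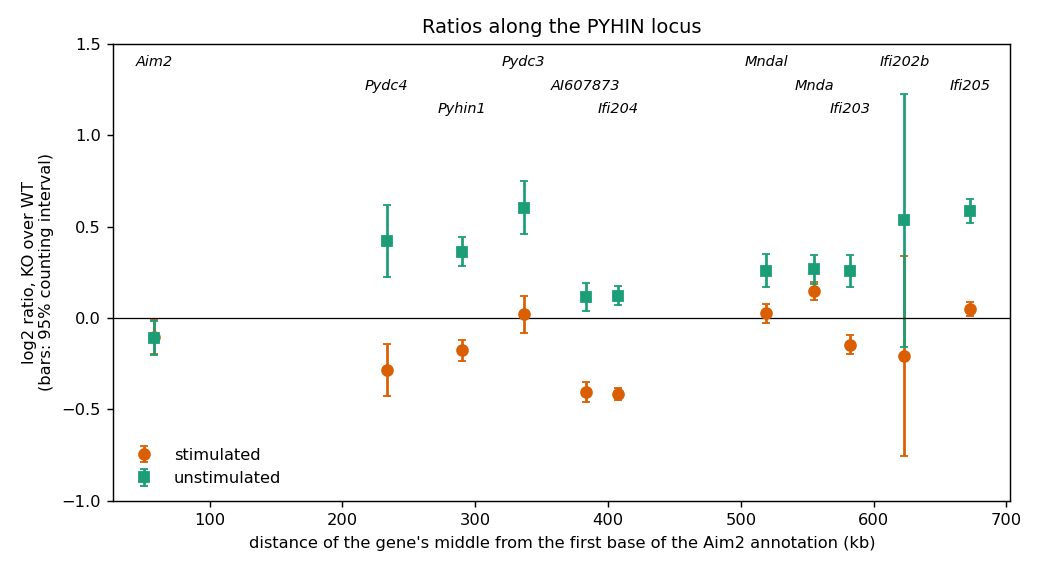
Log2 ratio of KO over WT (y axis) of the 11 genes of the PYHIN cluster that were in the tables, against the distance of each gene's middle from the first annotated base of Aim2 (x axis, kb). Orange circles are stimulated and green squares unstimulated cells, with 95% counting intervals. Unstimulated points lie above stimulated points at every gene but Aim2, and the interval of Ifi202b, from 49 KO and 58 WT reads in stimulated and 43 KO and 26 WT reads in unstimulated cells, is the widest.

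The AIM2 inflammasome and the cGAS and STING pathway carry DNA sensing beside the family. Of 20 genes of the AIM2 and other inflammasome pathways, 0 were called higher and 8 lower in stimulated KO cells, with a median of −0.12, and 1 was called higher and 7 lower in unstimulated KO cells, with a median of −0.10 that is 0.088 without centring. The 1 of 20 called higher is near the 4.7% of all genes called higher there. Of all genes, 6.54% were called lower in stimulated and 4.27% in unstimulated KO cells. Pycard, the ASC adaptor that Aim2 recruits, was the 1 called higher, with 2439 reads in unstimulated KO and 1848 in unstimulated WT cells and a log2 ratio of 0.21 ± 0.044. In stimulated cells its ratio of 0.12 ± 0.052 was not called. Nlrc4, the flagellin-responsive inflammasome scaffold, was called lower in both states, at −0.31 ± 0.080 in stimulated and −0.47 ± 0.092 in unstimulated KO cells. Il1b, the precursor of the cytokine interleukin-1 beta that caspase-1 cleaves, was called lower in unstimulated KO cells at −0.41. Naip5, a sensor that acts with Nlrc4, was called lower in stimulated KO cells at −0.34 ± 0.062.

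For the cGAS and STING pathway, 0 of 19 genes found were called higher and 7 lower in stimulated KO cells, and 2 of 18 higher and 1 lower in unstimulated KO cells. The medians were −0.09 in stimulated and 0.01 in unstimulated cells. Of all genes, 5.36% were called higher and 6.54% lower in stimulated KO cells, and 4.7% higher and 4.27% lower in unstimulated ones. The 1 of 18 called lower is near the last of these shares. Samhd1, a dNTP hydrolase that limits viral DNA synthesis, and Irf7, a factor that drives type I interferon genes, were the 2 called higher in unstimulated KO cells, at 0.20 ± 0.017 and 0.18 ± 0.014. The kinase gene Tbk1 was the 1 called lower there, at −0.16 ± 0.030. In stimulated KO cells Zbp1, a sensor of Z-form nucleic acid, was called lower at −0.29 ± 0.027, and Trex1, a DNA exonuclease, at −0.25 ± 0.034. Median log2 ratios of stimulated over unstimulated for this list were −0.04 in KO and −0.07 in WT cells, below the 0.91 in KO and 1.39 in WT cells of the PYHIN family.

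Most genes of the interferon-induced lists and of the RNA sensors were called lower in stimulated KO cells. The shares over all genes were 5.36% higher and 6.54% lower there, and 4.7% higher and 4.27% lower in unstimulated KO cells. Of 21 antiviral effectors, 0 were called higher and 19 lower in stimulated KO cells, with a median of −0.51, and 4 were called higher and 1 lower in unstimulated KO cells, with a median of 0.06. Their median log2 ratio of stimulated over unstimulated was 0.87 in KO and 1.51 in WT cells. That median was 1.49 in KO and 2.15 in WT cells for guanylate-binding proteins, and 1.90 in KO and 2.60 in WT cells for immunity-related GTPases. It was 0.79 in KO and 1.45 in WT cells for Schlafen genes, and 0.63 in KO and 0.77 in WT cells for RNA sensors. Several antiviral effectors and guanylate-binding protein genes, Oasl2 and Gbp9 among them, were at the highest stored p in stimulated cells. Their stimulated reads are lower limits, so the medians of stimulated over unstimulated for both lists may be too low. The 11 guanylate-binding protein genes had 0 higher and 10 lower in stimulated KO cells (median −0.38) and 0 higher and 1 lower in unstimulated KO cells (median −0.03). The 12 immunity-related GTPase genes had 0 higher and 10 lower in stimulated (median −0.57) and 1 higher and 0 lower in unstimulated KO cells (median 0.17). Schlafen genes had 0 higher and 6 lower of 8 found in stimulated (median −0.55) and 1 higher and 0 lower of 9 in unstimulated KO cells (median −0.01). The 10 genes listed as RNA sensors had 0 higher and 8 lower in stimulated (median −0.54) and 0 higher and 1 lower in unstimulated KO cells (median 0.00). That list also holds the DNA sensor Tlr9, the adaptor gene Mavs and the ubiquitin ligase genes Trim25 and Rnf125. Rnf125 was the 1 called lower in unstimulated KO cells. Beside the family median of 0.27 in unstimulated KO cells, the medians of these 5 lists lay between −0.03 and 0.17. Of the marker lists, macrophage and monocyte (0.29), lymphocyte (0.45) and fibroblast and stromal markers (0.74) had medians above that of the family there. The dendritic cell, neutrophil and plasmacytoid markers had medians below it. Without centring, the unstimulated medians were 0.36 for immunity-related GTPases, 0.25 for antiviral effectors, 0.17 for guanylate-binding proteins, 0.18 for Schlafen genes and 0.19 for RNA sensors, and that of the family 0.46. These differences between lists were not tested.

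Interferon signalling genes were mixed. Of 16, 3 were called higher and 9 lower in stimulated KO cells (median −0.14), and 3 higher and 3 lower in unstimulated KO cells (median 0.02). The shares over all genes were 5.36% higher and 6.54% lower in stimulated, and 4.7% higher and 4.27% lower in unstimulated KO cells. Stat2, a signal carrier of type I interferon, was called lower in stimulated KO cells at −0.43 ± 0.018. Usp18, which curbs type I interferon receptor signalling, was called lower at −0.81 there. Irf8, a factor of dendritic cell development, was called higher in both states, at 0.24 ± 0.013 in stimulated and 0.32 ± 0.017 in unstimulated KO cells. Socs3, an inhibitor of cytokine receptor signalling, was also called higher in both, at 0.31 and 0.44.

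By distance in the plane of the 2 ratios, the gene nearest to the family median among 10406 candidates was Tk1, a thymidine kinase gene, with log2 ratios of −0.11 ± 0.17 in stimulated and 0.27 ± 0.15 in unstimulated cells. Peak1, Ncapd2, Nav2, Zfp408, Efcab2, Htt, Mtcp1, Ccnd2 and Arhgef18 followed. Only Ccnd2, the cyclin D2 gene, of these 10 had opposite calls, at −0.07 ± 0.012 in stimulated and 0.24 ± 0.017 in unstimulated cells. The nearest gene was Adat3 for Ifi203, Plxna2 for Ifi204, Pfkfb1 for Pyhin1 and Dusp28 for Pydc4. Likeness was measured over 2 comparisons only, and counting errors of several of these genes exceed the distances.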

How the data were processed

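RNA of 4 libraries was sequenced after a strand-specific mRNA preparation, per the labels' protocols. FastQC 0.10.1, HTSeq 0.6.0 and mm10 are named per the submitters' processing notes; no source used here gives the aligner, annotation, strand setting or test. Sample titles gave the groups. The authors deposited a log2 fold change of KO over WT per gene in 2 tables, per the file headers. Their p-value column, as deposited, holds −log10 p, up to 150 in stimulated and 100 in unstimulated cells.

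From the values, the deposited p is a normal test of 2 read numbers around a zero point set by the library totals. Solving for these gave the reads, CPM and totals, a derivation made after the values were seen. It was tested on simulated data made with the same formula, which cannot show that the authors' test has this form. Genes at the highest stored p give lower limits. Each log2 ratio was reduced by the zero point, −0.036 in stimulated and 0.191 in unstimulated cells, and its counting SE came from its p. Alternatives were uncentred ratios, ratios centred on the median gene, other call rules and a minimum of 50 reads. No count model was run, since each group has 1 library. Python 3.11.15, numpy 2.4.6, pandas 2.3.3, scipy 1.17.1 and matplotlib 3.10.9 were used.

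The 9 members, 9 gene lists and 6 marker lists were chosen with earlier results of these data known. All members were named, and of each list at most the 2 highest and 2 lowest ratios among called genes. Also named were the genes nearest to the family or to a member with opposite calls. Added after they were seen were Isg15, Itgax, further genes with opposite calls, further inflammasome genes and some second-state values. Promoters came from RefSeq GRCm38.p6, transcripts from GENCODE on GRCm38, the build mm10 stands for. The 40-base windows were chosen after the promoters were seen.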

Additional observations from a re-analysis of the deposited data

Results flagged for a closer look

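For 4 members the KO over WT ratio was called on opposite sides in the 2 states, lower in stimulated and higher in unstimulated cells. The difference of the log2 ratios, stimulated minus unstimulated, was −0.40 for Ifi203, −0.54 for Ifi204, −0.54 for Pyhin1 and −0.71 for Pydc4. Under Bonferroni adjustment 1 of the 4, Pyhin1, held opposite calls. The difference itself was not tested, because each of the 4 groups has 1 library, and the family was chosen on this pattern.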

How the results depend on the processing

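Centring on the median gene turned no KO over WT ratio, and adjusting over genes with at least 50 reads changed no count of called members. Without centring, the family median in unstimulated cells was 0.46, Aim2 turned to 0.082 there and its difference between states to −0.22. In stimulated cells Mndal turned to −0.011 and Pydc3 to −0.015, and neither was called. List medians in unstimulated cells turned to 0.088 for the inflammasome, 0.19 for RNA sensors, 0.17 for guanylate-binding proteins and 0.18 for Schlafen genes. The cause is the zero point, which the uncentred scale leaves in. A 1.5-fold demand left 2 members higher in unstimulated cells and, in stimulated cells, 0 higher and 0 lower. Bonferroni adjustment left 2 lower in stimulated cells and 6 higher in unstimulated cells, so that 3 of the 4 members with opposite calls, Ifi203, Ifi204 and Pydc4, lost that status and Pyhin1 held it. An adjusted p under 0.05 gave 2 higher in stimulated cells and 8 higher in unstimulated cells. Centring the stimulation ratios on the median gene, chosen after seeing the data, turned Aim2 to 0.12 in KO and 0.11 in WT cells and kept the sign of the other 8 genes.

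No paired analysis was possible because each group has 1 library. Counting error limits Pydc4, at 332 to 906 reads a library, more than Ifi204, at 5524 to 16392. The spread between cultures is unknown. No difference given here has replicate support, whether as small as those of Ifi203 and Mnda in stimulated cells or larger.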

Other observations

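The interferon-linked genes Irf8, Isg15, Iigp1 and Irf1 had a smaller stimulation fold in KO than in WT cells. Inflammasome genes went both ways, with a larger fold for Il1b and Nlrp3 and a smaller one for Casp1, Casp4 and Gsdmd. Over the 20 genes of that list, the median log2 ratio of stimulated over unstimulated was 0.10 in KO and 0.10 in WT cells. Irf8 lay at a log2 ratio of stimulated over unstimulated of 0.72 in KO and 0.79 in WT cells. Il1b lay at 3.64 in KO and 3.30 in WT cells, though its unstimulated reads are lower limits. Isg15 lay at 2.40 in KO and 3.10 in WT cells, and Iigp1 at 3.19 in KO and 4.20 in WT cells. Irf1, a factor that IFN-gamma induces, lay at 1.58 in KO and 1.88 in WT cells. Nlrp3, an inflammasome sensor, lay at 1.19 in KO and 0.996 in WT cells, and Pycard, the partner of Aim2, at −0.50 in KO and −0.41 in WT cells. Differences between the KO and WT log2 ratios were set beside the 5th and 95th percentiles given above, −0.24 and 0.21. Those of Irf8, Nlrp3, Casp1, Casp4, Gsdmd and Pycard lay within this range, and those of Isg15, Iigp1, Irf1 and Il1b outside it. These genes were picked after their values were seen, and the differences were not tested.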
